A study of Mus musculus with 8 samples.

Results

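Alveolar epithelial type 2 cells (AT2s) produce the surfactant of the lung alveolus. They were compared between mice with a floxed Fgfr2b, open to deletion in the Sftpc lineage, and mice with wild-type Fgfr2b. Of 24306 genes on the array, 8443 had a mean log2 signal of 8 or more in either group, and 127 of these lay at least 1 log2 unit, a doubling or a halving of signal, away from the control on each of 3 experimental arrays. Of the 127 genes, 59 were higher and 68 were lower in AT2s of the mice with floxed Fgfr2b. The control group (C-AT2) carried Sftpc CreERT2/+; tdTomato flox/flox and wild-type Fgfr2b, and the experimental group (E-AT2) carried the same alleles and Fgfr2b flox/flox in place of wild-type Fgfr2b. Both groups drank tamoxifen water at 1 mg/ml, so Cre from the Sftpc locus was active in the controls too, and the records give mice of 9 to 12 weeks and both genders. AT2s were sorted as Tomato-high epithelial cells, with 1 array at day 7 for C-AT2 and 1 array each at days 4, 7 and 14 for E-AT2. By the paper's measure of genomic DNA, E-AT2s still held intact Fgfr2b copies at days 7 and 14, so the deletion was not complete. Tomato-low cells of the same lineage (IAAPs) were sorted on the same design and give 4 further arrays of 8 in all. The number of animals behind each array is not given in the sources used here.

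Fgfr2b is the epithelial splice form of fibroblast growth factor receptor 2, which binds Fgf7 and Fgf10 from the mesenchyme and signals through Ras and MAP kinase to genes such as Etv5, Spry2 and Dusp6. In the lung it directs branching and alveolar epithelial fate, and in the adult it acts in the AT2 lineage. AT2s make surfactant and serve as stem cells of the alveolus. At rest few of them divide, and a dividing cell turns on genes of the S, G2 and M phases.

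The rule compares 3 arrays with 1, so its distances are descriptions. The control has no replicate, the 3 days stand in for replicates of E-AT2, and a day effect, the spread between mice and the genotype cannot be told apart. Fitted across all 24306 genes with limma, no gene passed an adjusted p of 0.05 in E-AT2 against C-AT2 (0% of genes), while 1609 had an unadjusted p under 0.05. The lowest adjusted p in that limma fit was 0.0804, for an olfactory receptor gene, Olfr1436, which was at 7.07 in C-AT2 and between 2.39 and 2.45 in E-AT2. The 59 higher genes are 0.699% of the 8443 genes at the level of 8, and the 68 lower genes are 0.805%. For the 127 genes the adjusted p ran from 0.161 to 0.946 among the higher and from 0.185 to 0.975 among the lower genes.

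A background level was set on each array as the 95th percentile of 1394 sensory receptor genes, which AT2s are not known to use; it was 6.88 for C-AT2 and 7.03, 7.05 and 6.62 for E-AT2 at days 4, 7 and 14. Of the 59 higher genes, 24 were not above that level in C-AT2, so their fold is only a lower bound, and 56 were above it on all 3 E-AT2 arrays. All 68 lower genes were above background in C-AT2, and 14 of them were at or below it on every E-AT2 array. The level of 8 was met only in the higher group by 42 of the 59 higher genes and by 56 of the 68 lower genes, which therefore had to differ to enter. The median distance was 1.68 for the higher genes and -1.75 for the lower genes, beside -0.002 over the 8443 genes, and the median SD over the 3 days was 0.36 and 0.42. The mean distance exceeded 3 times that SD for 47 of 59 higher and 54 of 68 lower genes. The rule asks each of the 3 distances to be 1 or more, so these counts are partly fixed by it. Just inside the threshold, the smallest of the 3 distances was 1.001 for Fance, 1.003 for Gab1 and 1.005 for Zfp933, and just outside it was 0.997 for Sh3bp1, 0.990 for Actr1a and 0.986 for Nme7. On the lower side the genes just inside were Olfm3 at 1.012, Kansl1 at 1.012 and Frat1 at 1.015, and those just outside were Gm33277 at 0.991, Fut2 at 0.990 and Slc20a1 at 0.989.

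The sorted cells carried the AT2 markers. All 15 genes of an AT2 marker list were above background on all 4 arrays, with a median difference of -0.03. Of 5 measured sex-linked genes, 3 set one array apart. Xist, which is transcribed from the inactive X of females, was at 6.43 in C-AT2 and at 7.28, 6.13 and 13.52 in E-AT2 at days 4, 7 and 14. The Y-linked Eif2s3y was at 11.05 in C-AT2 and at 11.33, 10.66 and 2.69 in E-AT2, and Uty was at 7.18 in C-AT2 and at 7.96, 7.54 and 3.24. Kdm5d, also Y-linked, did not follow, at 12.26 in C-AT2 and at 12.71, 12.15 and 12.44 in E-AT2, and Usp9y was below background on all 4 arrays. The day 14 array therefore differed from the other 3 in Xist, Eif2s3y and Uty, and values without it are given below for the main counts.

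**Figure D1:**
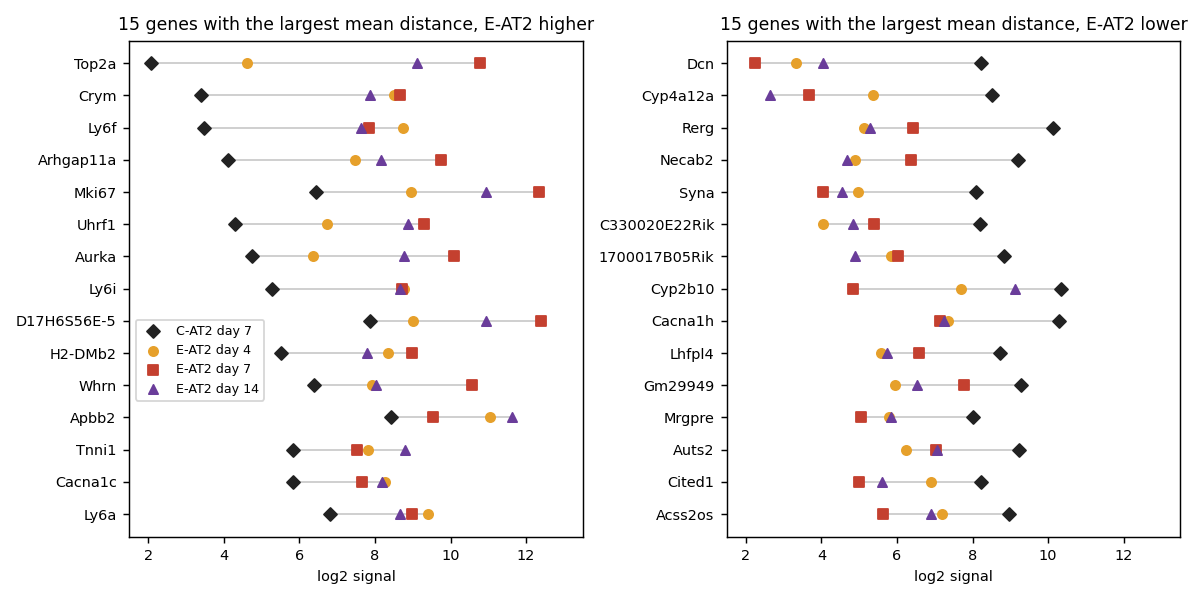
The log2 signal (x axis) of the 15 genes with the largest mean distance in each direction, higher on the left and lower on the right, with the C-AT2 array as black diamonds and E-AT2 arrays of days 4, 7 and 14 as circles, squares and triangles. Top2a runs from 2.08 in C-AT2 to 10.77 at day 7, Ly6i lies at 8.67 to 8.77 on all 3 E-AT2 arrays, and Rerg runs from 10.14 in C-AT2 down to 5.13 at day 4.

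Genes of the cell cycle led the higher group. Top2a, the topoisomerase that untangles chromosomes in G2 and M, was at 2.08 in C-AT2 and at 4.61, 10.77 and 9.10 in E-AT2 at days 4, 7 and 14. Mki67, which encodes the proliferation antigen Ki-67, was at 6.45 in C-AT2 and at 8.95, 12.35 and 10.94 in E-AT2. Both were below background in the control, and the mean of the 3 E-AT2 arrays was at least 2.43-fold and at least 14.6-fold above that background. The day 7 array was the highest and the day 4 array the lowest of the 3 for both genes. No E-AT2 array reached down to the control, but for Top2a day 4 was below background too, so its order there says little. The other Top2a spots read 3.53, 3.84 and 4.37 in C-AT2, and 3.23, 5.63 and 2.62 in E-AT2 at day 4. At day 7 they read 8.00, 6.59 and 5.64.

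The other dividing-cell genes among the 59 had the same order of days. Uhrf1, which brings the maintenance DNA methyltransferase to newly copied DNA, was at 4.31 in C-AT2 and at 6.73, 9.30 and 8.87 in E-AT2. Aurka, a mitotic spindle kinase, was at 4.76 in C-AT2 and at 6.36, 10.10 and 8.76 in E-AT2. Mcm3, a subunit of the replicative helicase, was at 7.58 in C-AT2 and at 8.90, 10.69 and 9.13 in E-AT2. These 3 genes were all highest at day 7, and the day 4 values of Top2a, Uhrf1 and Aurka were themselves below background. Rrm1, the large subunit of ribonucleotide reductase, was at 8.37 in C-AT2 and at 9.64, 10.74 and 9.79 in E-AT2, a 3.21-fold difference of means. Arhgap11a was at 4.11 in C-AT2 and at 7.47, 9.75 and 8.15 in E-AT2. A second spot of Uhrf1 read 3.24 in C-AT2 and 4.85, 8.95 and 7.72 in E-AT2, and the other Mcm3 spots were 1.33 to 2.91 higher.

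The promoters of Top2a, Mki67, Aurka and Mcm3 are shown because these genes were higher on all 3 arrays with day 7 the highest, and because the CCAAT box and the cell cycle homology region (CHR, TTTGAA) are known from promoters of G2 and M phase genes, and E2F sites from those of S phase genes. Each is the 300 bases around the transcription start from RefSeq (GRCm38.p6), read 5′ to 3′ on the gene's strand, all of them minus: chr11:99024140-99024439 for Top2a, chr7:135716330-135716629 for Mki67, chr2:172370521-172370820 for Aurka and chr1:20820263-20820562 for Mcm3. Capitals mark matches on either strand to CCAAT, to the CHR letters TTTGAA and to the E2F-like letters TTTCCCGC and TTTGGCGC, which did not overlap each other in these 4 promoters.
Top2a: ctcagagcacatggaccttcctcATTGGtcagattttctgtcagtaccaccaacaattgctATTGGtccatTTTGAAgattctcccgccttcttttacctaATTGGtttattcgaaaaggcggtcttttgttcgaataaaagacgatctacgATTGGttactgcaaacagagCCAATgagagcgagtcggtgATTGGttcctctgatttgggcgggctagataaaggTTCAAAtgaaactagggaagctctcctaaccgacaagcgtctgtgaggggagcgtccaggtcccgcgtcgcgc
Mki67: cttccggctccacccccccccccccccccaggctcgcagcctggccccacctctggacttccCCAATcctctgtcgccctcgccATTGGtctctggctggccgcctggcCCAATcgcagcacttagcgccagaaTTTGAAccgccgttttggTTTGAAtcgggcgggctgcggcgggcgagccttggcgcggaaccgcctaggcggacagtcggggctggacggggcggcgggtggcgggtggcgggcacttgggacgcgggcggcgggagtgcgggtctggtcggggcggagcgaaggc
Aurka: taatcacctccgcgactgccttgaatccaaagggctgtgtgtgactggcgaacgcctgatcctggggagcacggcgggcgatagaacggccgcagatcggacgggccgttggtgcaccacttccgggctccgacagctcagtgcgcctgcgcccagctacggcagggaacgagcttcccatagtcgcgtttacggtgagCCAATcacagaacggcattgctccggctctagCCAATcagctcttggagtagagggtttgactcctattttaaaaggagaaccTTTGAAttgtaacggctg
Mcm3: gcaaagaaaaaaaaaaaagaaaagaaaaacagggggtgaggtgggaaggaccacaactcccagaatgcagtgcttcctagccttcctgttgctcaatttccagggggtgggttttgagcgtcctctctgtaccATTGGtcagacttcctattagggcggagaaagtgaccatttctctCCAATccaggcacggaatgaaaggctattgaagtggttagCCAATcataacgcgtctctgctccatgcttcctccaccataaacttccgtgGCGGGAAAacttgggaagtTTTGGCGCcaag
CCAAT matched 6 times in the Top2a promoter, 3 times in Mki67, 2 times in Aurka and 3 times in Mcm3. TTTGAA matched 2 times in Top2a, 2 times in Mki67 and 1 time in Aurka. With Uhrf1 (2 annotated starts), Rrm1 and Arhgap11a, these are 8 promoters of 7 genes. All 8 held CCAAT, beside 37.4% of the 32851 mouse promoters in the table. TTTGAA was in 4 of 8 beside 17.9%, TTTGGCGC in 2 of 8 beside 0.514% and TTTCCCGC in 1 of 8 beside 1.07%. A match is only a string of letters and does not show that a factor was bound.

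A list of S, G2 and M phase genes shows how wide the pattern was. Of its 46 measured genes, the rule kept 6 as higher and none as lower (0.699% and 0.805% of all genes at the level of 8). None passed the limma test, and 12 had an unadjusted p under 0.05. Of its 21 genes at the level of 8, 16 were higher than C-AT2 on all 3 arrays and 0 were lower on all 3, where 24.0% and 25.0% of the 8443 genes were. The median difference of these 21 genes was 1.14, beside -0.002 for all genes at that level. Of the 21, 10 were under 8 in C-AT2 and came in only through the E-AT2 arrays, so this count and median are partly fixed by the level. Over all 46 measured genes, with no level asked, 32 were higher on all 3 arrays and 0 lower, beside 25.4% and 25.2% of the 24306 genes, and the median difference was 1.43, beside 0.01. For the 21 genes at the level of 8 the median was 0.60 at day 4, 2.37 at day 7 and 1.06 at day 14. Day 7 was the highest of the 3 days for 21 of 21 genes. At day 7, the day of the control, 17 of 21 genes were 1 or more above C-AT2, against 6 at day 4 and 12 at day 14.

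Several dividing-cell genes were carried by days 7 and 14 and so were not kept. Birc5, the mitotic survivin, was at 7.85 in C-AT2 and at 7.95, 12.54 and 11.58 in E-AT2. Ube2c, a ubiquitin-conjugating enzyme of mitotic exit, was at 5.98 in C-AT2 and at 5.93, 10.28 and 9.00 in E-AT2. Ccna2, cyclin A2, was at 7.79 in C-AT2 and at 6.05, 10.27 and 8.65 in E-AT2. The day 4 array lay close to the control for Birc5 and Ube2c and below it for Ccna2. Genes with a high signal in the control differed among themselves. Pcna, the DNA polymerase clamp, lay near the control, at 12.59 in C-AT2 and at 12.18, 13.23 and 12.88 in E-AT2, as did Hmgb2, 0.22 higher on average. Stmn1 was above it on all 3 arrays, at 13.61 in C-AT2 and at 14.02, 14.90 and 14.69 in E-AT2. So was Mcm6, at 10.35 in C-AT2 and at 11.03, 12.08 and 11.38 in E-AT2. Without day 4 the rule kept 17 genes of the list, without day 7 it kept 3 and without day 14 it kept 6. The median difference without each of those days was 1.67, 0.84 and 1.21.

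**Figure D2:**
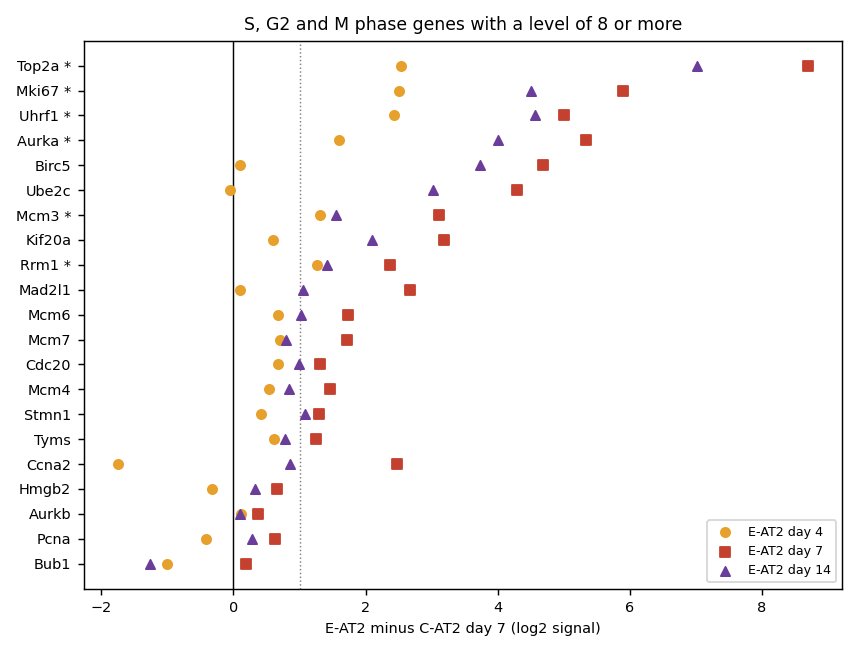
The difference between each E-AT2 array and the C-AT2 array (x axis, log2 signal) for the 21 S, G2 and M phase genes with a mean level of 8 or more, one gene a row, with days 4, 7 and 14 as circles, squares and triangles, a solid line at 0, a dotted line at 1 and asterisks on the 6 genes the rule kept. The day 7 square is the rightmost point in all 21 rows.

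Alveolar macrophages, which also divide in the lung, are one other cell type whose genes were followed. Of 21 macrophage markers, 8 were above background in C-AT2 and 5, 7 and 12 in E-AT2 at days 4, 7 and 14, and their summed log2 signal was 12.15 in C-AT2 and 11.95, 12.12 and 12.94 in E-AT2. Siglecf and Itgax, 2 defining markers, were below background on all 4 arrays. The part of macrophages in the differences was not tested. In sorted bulk RNA, more dividing cells and more of these transcripts per cell cannot be told apart.

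The entry regulators of the cycle did not move in one direction. Of 22 genes in a list of D cyclins, kinases and Cdk inhibitors, the rule kept none, and the 13 at the level of 8 had a median difference of 0.18. Ccnd1, cyclin D1, was at 10.52 in C-AT2 and at 11.50, 11.48 and 11.29 in E-AT2, which is 0.91 ± 0.12 higher (SD over 3 days; limma adjusted p = 0.66). Ccnd2, cyclin D2, was at 10.38 in C-AT2 and at 9.05, 9.66 and 9.54 in E-AT2, a difference of -0.97 ± 0.32 (limma adjusted p = 0.77). Neither gene's E-AT2 arrays overlapped the control. Cdkn1b, which encodes the Cdk inhibitor p27, was at 9.41 in C-AT2 and at 8.52, 8.83 and 8.85 in E-AT2 (limma adjusted p = 0.85).

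From a cluster on chromosome 15, 3 Ly6 genes were among the 59. Ly6 genes encode small surface proteins held by a lipid anchor, and Ly6a is Sca-1. Ly6i was at 5.27 in C-AT2 and at 8.77, 8.72 and 8.67 in E-AT2, at least 3.58-fold above background. Ly6f was at 3.47 in C-AT2 and at 8.74, 7.83 and 7.63 in E-AT2. Ly6a was at 6.82 in C-AT2 and at 9.40, 8.98 and 8.67 in E-AT2, at least 4.40-fold above background. In all 3 genes the control was below background and every E-AT2 array was above it, with day 14 the lowest. Ly6i and Ly6a start 15343 bases apart, and Ly6f starts 273495 bases beyond Ly6a. Ly6e, Ly6c1 and Ly6c2, brighter members of the family, were 0.53, 0.40 and 0.41 higher and were not kept. Of 12 measured Ly6 genes, a set looked up after these values were seen, 6 were at the level of 8. Of these 6, 4 were higher on all 3 arrays, beside 24.0% of the 8443 genes. Since 3 of the 6 were under 8 in C-AT2, this count is partly fixed by the level. The Ly6 genes are close relatives, so a spot may read RNA of more than 1 of them.

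The other higher genes came from no single list. Crym, a thyroid hormone-binding protein, was at 3.39 in C-AT2 and at 8.50, 8.65 and 7.87 in E-AT2, at least 2.76-fold above background. Retnla, a secreted resistin-like protein of allergic lung inflammation, was at 10.50 in C-AT2 and at 12.87, 12.14 and 12.42 in E-AT2, a 3.92-fold difference. Irx3, an Iroquois transcription factor, was at 9.85 in C-AT2 and at 11.47, 11.57 and 11.45 in E-AT2, a 3.13-fold difference with an SD of 0.07 over the days. Both Retnla and Irx3 were above background on all 4 arrays.

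Cpt1a, the enzyme that commits fatty acids to the mitochondrion, was at 10.80 in C-AT2 and at 12.18, 11.84 and 11.96 in E-AT2. Eci2, which helps to oxidise unsaturated fatty acids, was at 8.29 in C-AT2 and at 9.32, 9.44 and 9.90 in E-AT2. Sirt4, a mitochondrial sirtuin, was at 8.01 in C-AT2 and at 10.60, 10.01 and 9.58 in E-AT2. These 3 genes of mitochondrial metabolism were 2.29-fold, 2.39-fold and 4.15-fold higher. Gab1, a docking protein that carries signals from receptor tyrosine kinases, was at 8.95 in C-AT2 and at 10.14, 9.96 and 10.18 in E-AT2. Klf11, a zinc finger repressor, was at 8.03 in C-AT2 and at 9.30, 9.46 and 9.46 in E-AT2. Cdh16, a cadherin, was at 7.50 in C-AT2 and at 9.81, 9.59 and 9.67 in E-AT2, a 4.57-fold difference. Each of these 3 genes had E-AT2 days within 0.25 log2 units of each other.

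H2-DMb2, a chain of the class II peptide-loading complex, was at 5.52 in C-AT2 and at 8.34, 8.99 and 7.78 in E-AT2. The complement protease gene C1ra was at 6.58 in C-AT2 and at 8.09, 8.84 and 8.75 in E-AT2, and Tapbpl, a class I peptide editor, was at 8.59 in C-AT2 and at 9.60, 9.61 and 9.70 in E-AT2. In a separate list of 18 genes of MHC class I and II presentation the rule kept none. Of its 15 genes at the level of 8, 12 were higher than the control on all 3 arrays and 0 were lower on all 3. Of the 8443 genes at that level, 24.0% were higher and 25.0% lower on all 3. The median difference of the 15 was 0.29. H2-Ab1, a class II chain, was at 13.06 in C-AT2 and at 14.00, 14.12 and 13.76 in E-AT2. B2m, the light chain of class I, was at 12.47 in C-AT2 and at 13.83, 13.00 and 13.04 in E-AT2 (limma adjusted p = 0.82 for H2-Ab1 and 0.86 for B2m). Leukocyte markers had a median difference of 0.17 over 22 genes, with a summed log2 signal of 14.03 in C-AT2 and 14.05, 14.50 and 14.24 in E-AT2, and their part was not tested.

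The widest mean distances among the 68 lower genes were those of Dcn, Cyp4a12a and Rerg. Rerg, a Ras-like protein that restrains growth, was at 10.14 in C-AT2 and at 5.13, 6.42 and 5.29 in E-AT2, at least 9.44-fold lower. Dcn, which encodes the matrix proteoglycan decorin, was at 8.23 in C-AT2 and at 3.33, 2.24 and 4.05 in E-AT2, at least 2.52-fold lower. Both were below background on every E-AT2 array. Decorin is a fibroblast product. Of the other fibroblast markers, Col1a1, Col1a2, Col3a1 and Pdgfra were below background on all 4 arrays, and the list of 21 summed to 12.86 in C-AT2 and to 12.89, 13.09 and 12.84 in E-AT2. Of those markers 5 were above background in C-AT2 and 4, 5 and 5 in E-AT2, and Npnt, a matrix ligand of integrins, was kept as higher. The part of fibroblasts in the Dcn difference was not tested.

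Necab2, a calcium-binding protein, was at 9.21 in C-AT2 and at 4.89, 6.37 and 4.69 in E-AT2. Cacna1h, a T-type calcium channel, was at 10.30 in C-AT2 and at 7.34, 7.13 and 7.25 in E-AT2, an 8.32-fold difference with an SD of 0.11. The next brightest Cacna1h spot did not follow, with 6.74 in C-AT2 and 7.13, 7.20 and 7.15 in E-AT2. On the higher side Cacna1c, an L-type calcium channel, was at 5.82 in C-AT2 and at 8.25, 7.65 and 8.20 in E-AT2, while another spot of it read 7.75 in C-AT2 and 7.81, 6.86 and 7.62 in E-AT2. Both channels thus rest on 1 spot each.

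A pair of cytochrome P450 genes was among the lower genes. Cyp2b10, a drug-metabolising enzyme also listed with AT1 genes, was at 10.33 in C-AT2 and at 7.69, 4.83 and 9.12 in E-AT2, with the lowest array at day 7. Its second spot read 10.20 in C-AT2 and 7.84, 6.41 and 8.97 in E-AT2. Cyp4a12a, a fatty acid hydroxylase, was at 8.50 in C-AT2 and at 5.37, 3.68 and 2.63 in E-AT2. Of the 15 AT1 genes at the level of 8, 9 were higher and 3 were lower on all 3 arrays, Cyp2b10 among the lower. Of the 8443 genes, 24.0% were higher and 25.0% lower on all 3. The AT1 median was 0.29, and Ager was at 14.46 in C-AT2 and at 14.52, 14.76 and 14.77 in E-AT2. Club cell markers were also lower. Of 10 at the level of 8, 6 were lower on all 3 arrays, beside 25.0% of the 8443 genes, and 1 was higher, beside 24.0%. Their median was -0.50. Scgb1a1, the club cell secretoglobin, was at 15.95 in C-AT2 and at 14.44, 15.06 and 15.25 in E-AT2. The summed log2 signal of the 17 club cell markers was 16.81 in C-AT2 and 16.18, 16.38 and 16.47 in E-AT2, with 12 above background in C-AT2 and 11, 11 and 12 in E-AT2, and their part in the lower genes was not tested.

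Stress-response genes stood mostly below the control. Atf3, a transcription factor induced by stress, was at 9.55 in C-AT2 and at 6.71, 8.25 and 6.61 in E-AT2, a 5.13-fold difference. Hspb1, a small heat shock protein, was at 10.57 in C-AT2 and at 9.16, 9.45 and 9.25 in E-AT2, a 2.43-fold difference with an SD of 0.15. These were the only genes of their lists that the rule kept. Of 26 immediate early genes at the level of 8, 13 were lower on all 3 arrays and 0 were higher on all 3, with a median of -0.47. Of 18 heat shock genes 9 were lower on all 3 and 0 were higher, with a median of -0.33. Of 23 genes of the unfolded protein and amino acid response, 16 were lower on all 3 and 1 was higher, with a median of -0.31. The background at this level was 25.0% lower and 24.0% higher on all 3 arrays.

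The day-matched array was closest to the control in these lists. The medians at days 4, 7 and 14 were -0.91, -0.14 and -0.65 for the immediate early genes and -0.57, -0.13 and -0.27 for the heat shock genes. Egr1 was at 13.69 in C-AT2 and at 11.83, 14.33 and 11.93 in E-AT2, so its day 7 array lay above the control. Fosb was at 14.35 in C-AT2 and at 10.16, 13.86 and 12.38 in E-AT2. Both encode transcription factors that cells induce within minutes of a stimulus. Hspa5, the chaperone BiP, was at 13.42 in C-AT2 and at 12.80, 12.82 and 13.03 in E-AT2 (limma adjusted p = 0.91).

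**Figure D3:**
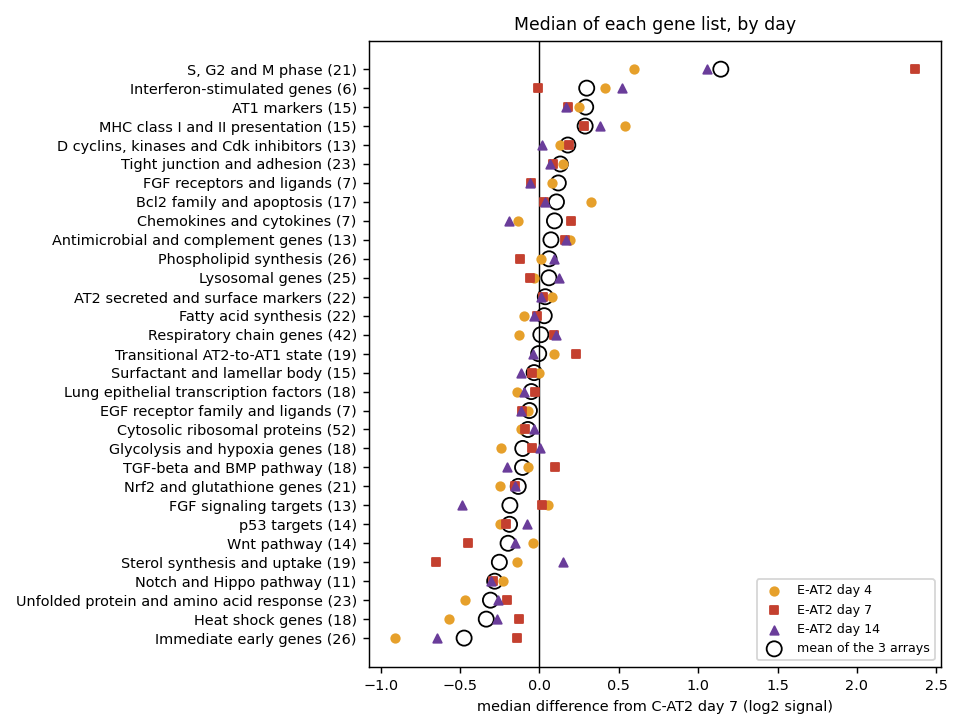
The median difference from the C-AT2 array (x axis, log2 signal) of the pathway and cell state lists with at least 6 genes at the level of 8 (cell type markers, reference genes and lists added later are not drawn), with the number of its genes at the level of 8 in brackets, for E-AT2 at days 4, 7 and 14 (circle, square, triangle) and for the mean of the 3 arrays (open circle); the vertical line is the median of all 8443 genes. Among the lists drawn, the S, G2 and M phase genes stand furthest to the right at 1.14 and the immediate early genes furthest to the left at -0.47.

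Cry1, a repressor in the circadian clock, was at 9.11 in C-AT2 and at 7.12, 7.68 and 6.32 in E-AT2, and its second spot was at 8.18 in C-AT2 and at 6.97, 6.70 and 6.53 in E-AT2. Other clock genes, looked up after this value was seen, had no common direction against C-AT2. Arntl, a clock activator, was at 9.28 in C-AT2 and at 9.38, 8.19 and 6.30 in E-AT2. Dbp, a clock output, was at 9.73 in C-AT2 and at 8.97, 10.85 and 12.67 in E-AT2. Arntl thus fell and Dbp rose with the day. The IAAP arrays of the experimental group did the same, with Arntl at 8.24, 6.88 and 5.57 and Dbp at 8.36, 10.53 and 11.83. The hour of harvest is not given in the sources used here, and its part was not tested. Of 13 clock genes at the level of 8, 1 was kept by the rule. On all 3 arrays 4 (30.8%) were higher and 3 (23.1%) lower, beside 24.0% and 25.0% of the 8443 genes.

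Histone and imprinted genes were also among the 68. H3c14 was at 8.86 in C-AT2 and at 7.24, 7.28 and 7.31 in E-AT2, and H3c15 was at 8.17 in C-AT2 and at 6.20, 7.10 and 6.31 in E-AT2. They encode histone H3, start 8206 bases apart on chromosome 3 and are near copies, so their spots may read the same RNA. Snrpn, an imprinted splicing gene, was at 9.47 in C-AT2 and at 6.57, 8.19 and 7.54 in E-AT2. Its 4 other spots above background were above it only in C-AT2, so their lower means in E-AT2 are partly fixed. Long non-coding RNAs made up 11 of the 68 lower genes (16.2%) and 3 of the 59 higher genes (5.08%), beside 4.26% of the 8443 genes. Ctsf, a lysosomal cysteine protease, was at 9.83 in C-AT2 and at 8.74, 8.13 and 8.61 in E-AT2, and Nagpa, which finishes the mannose 6-phosphate tag of lysosomal enzymes, was at 10.30 in C-AT2 and at 8.45, 7.81 and 9.12 in E-AT2. The 25 other lysosomal genes at that level had a median of 0.06.

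Neither Fgfr2 nor the genes known to follow FGF signaling were among the 127. The brightest Fgfr2 spot was at 12.45 in C-AT2 and at 12.10, 11.95 and 11.68 in E-AT2, a difference of -0.54 ± 0.21 (SD over 3 days; limma adjusted p = 0.98). Every E-AT2 array was below the control, the day 14 array most. A second spot was at 10.61 in C-AT2 and at 10.65, 10.24 and 10.12 in E-AT2, so day 4 was not lower there. The floxed allele removes the exon of the IIIb form, and where the spots lie relative to that exon is not given, so they do not check the deletion. Fgfr2 lies at chr7:130162451-130266808 (GRCm38.p6). Of the 127 genes, Crym, Mki67, Mrgpre and 2310057M21Rik lie within 20 Mb of it on chromosome 7, which is 2 of 59 higher and 2 of 68 lower genes beside 2.39% of the 8443.

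Of 20 measured FGF target genes the rule kept none, and the 13 at the level of 8 had a median of -0.19. Etv5, an ETS factor induced by FGF, was at 12.70 in C-AT2 and at 12.75, 12.37 and 12.42 in E-AT2. Spry2, a feedback inhibitor, was at 12.33 in C-AT2 and at 12.51, 12.22 and 11.46 in E-AT2. For both the day 4 array was above the control. Dusp4, a MAP kinase phosphatase, was at 12.07 in C-AT2 and at 11.19, 11.89 and 10.88 in E-AT2, and was the one gene of these 13 lower on all 3 arrays (limma adjusted p = 0.94). Spred1 and Rasa1 were higher on all 3. So 2 of the 13 (15.4%) were higher and 1 (7.69%) lower, beside 24.0% and 25.0% of the 8443 genes. The median of the 13 genes was 0.06 at day 4, 0.02 at day 7 and -0.49 at day 14.

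Surfactant genes lay close to the control. Of 17 measured genes of surfactant and the lamellar body the rule kept none, and the 15 at the level of 8 had a median of -0.03. Of these 15, 2 were higher and 5 lower on all 3 arrays, beside 24.0% and 25.0% of the 8443 genes. Sftpb was at 14.542 in C-AT2 and at 14.938, 14.442 and 14.996 in E-AT2, and Sftpa1 was at 14.10 in C-AT2 and at 14.05, 14.24 and 14.20. In both genes the control lay inside the range of E-AT2. Sftpc was at 15.997 in C-AT2 and at 15.995, 15.939 and 15.959 in E-AT2, at the top of the scale, so a higher level would not have been seen. Abca3, the lipid pump of the lamellar body, was at 11.26 in C-AT2 and at 11.41, 11.17 and 11.04 in E-AT2. Epcam, the epithelial sorting marker, was at 11.05 in C-AT2 and at 11.06, 11.38 and 11.26 in E-AT2. Sterol genes had a median of -0.25, with -0.14, -0.65 and 0.15 at days 4, 7 and 14, and the fatty acid synthesis list had a median of 0.03.

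**Figure D4:**
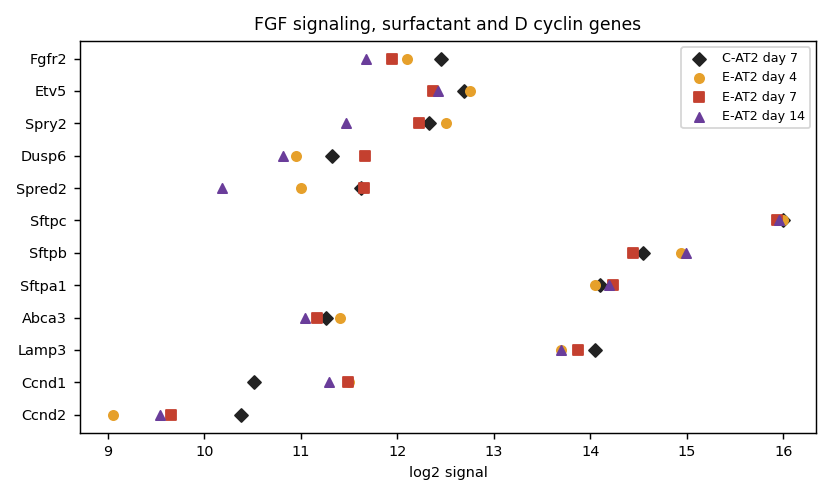
The log2 signal (x axis) of FGF signaling, surfactant and D cyclin genes on the C-AT2 array (black diamond) and the E-AT2 arrays of days 4, 7 and 14 (circle, square, triangle). Fgfr2, Lamp3, Ccnd1 and Ccnd2 show the control apart from all 3 E-AT2 arrays, while for Etv5, Sftpb, Sftpa1 and Abca3 the control lies among them.

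The IAAP arrays entered the rule only through the choice of spot, the brightest on average over all 8 arrays. They allow the same genes to be read in the Tomato-low cells of the same genotypes. Here too there is 1 control array, and it stood apart: the background level of C-IAAP was 8.67 against 6.45 to 7.28 on the E-IAAP arrays, and its Pearson correlation across genes with the other arrays was 0.845 to 0.876, against 0.915 to 0.971 among those arrays. Among the 59 higher genes 27 (45.8%) were 1 or more higher on all 3 E-IAAP arrays than on C-IAAP, beside 20.2% of the 8443 genes. Among the 68 lower genes 11 (16.2%) were 1 or more lower, beside 7.21%. The median E-IAAP minus C-IAAP difference was 1.27 for the higher genes and -0.31 for the lower genes. Alveolar macrophage markers also differed between the IAAP groups, with 10 of 21 above background in C-IAAP and 18 to 20 in E-IAAP, summed log2 signals of 15.65 and 16.53 to 16.82, and their part was not tested.

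Over all 8 arrays, 32 of the 59 higher genes (54.2%) had both controls below all 6 experimental arrays, beside 22.7% of the 2029 genes that were higher on all 3 E-AT2 arrays by any distance. For the lower genes it was 23 of 68 (33.8%), beside 17.5% of 2110. A gene kept for a wide distance in AT2s separates more easily, so these shares are partly fixed by the rule. The 6 experimental arrays are 3 days of 2 populations and are not known to be independent. At day 14, Xist was at 13.52 in E-AT2 and 13.30 in E-IAAP, and Eif2s3y at 2.69 and 2.14. Ly6i was at 3.10 in C-IAAP and at 9.17, 7.92 and 8.63 in E-IAAP. Arhgap11a was at 4.80 in C-IAAP and at 8.58, 9.17 and 9.72 in E-IAAP, and Irx3 at 9.14 in C-IAAP and at 11.07, 11.25 and 10.69 in E-IAAP. Rerg was at 8.31 in C-IAAP and at 2.75, 5.57 and 3.94 in E-IAAP. In these 4 genes no experimental array of either population overlapped either control. Mki67 was not such a gene, since C-IAAP was at 9.62, above the E-AT2 array of day 4, and neither was Ly6a, at 8.72 in C-IAAP.

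**Figure D5:**
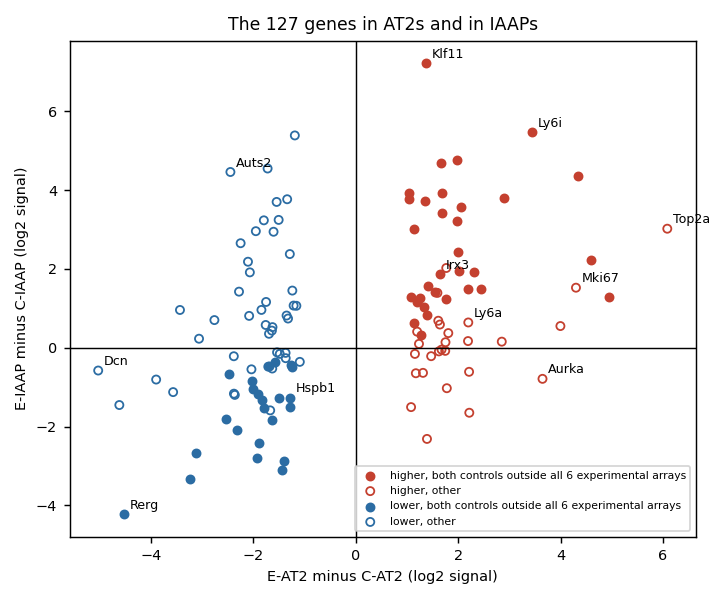
The mean difference in AT2s (x axis, E-AT2 minus C-AT2, log2 signal) against that in IAAPs (y axis, E-IAAP minus C-IAAP) for the 127 genes, red for higher and blue for lower in AT2s, filled where both control arrays lie on one side of all 6 experimental arrays. By that definition the 55 filled points can lie only in the 2 quadrants where both differences share a sign. Klf11 and Auts2 stand far above 0 in IAAPs.

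Other spots of the same genes were not used by the rule but read the same RNA. Of the 59 higher genes, 21 had another spot above background, and 16 of these 23 spots were higher in E-AT2. Of the 68 lower genes, 20 had one, and 21 of 25 such spots were lower. All other spots had the sign of the chosen one in 14 of 21 higher and 16 of 20 lower genes. A spot counted if it was above background in either group, so it could enter through the group where it was high. These counts are therefore partly fixed, and no share over all genes was taken.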

How the data were processed

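Per the labels and the methods, the authors amplified RNA of sorted cells with the Ovation PicoSL WTA kit, labeled it with Cy5 and hybridised it to 1-colour Agilent 8x60K mouse arrays. The deposited values are log2 spot signals, which the authors corrected for background by NormExp, using the negative controls, and then quantile-normalized in limma (version not given in the sources used here). Quantile normalization forces 1 distribution on every array, so a shift of all genes cannot be seen. Of 62976 spots, 43941 carried 1 gene symbol and 19035 none. Symbols were updated through RefSeq (33708 by accession, 463 by synonym). Where a gene had several spots, as 11040 of the 24306 genes did, its brightest one on average was taken. The precision is limited by 1 array per group and day. The titles number every sample as replicate 1.

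Samples were grouped by title. Genes with a mean of 8 or more in either AT2 group were kept where the 3 E-AT2 arrays all lay 1 or more on the same side of C-AT2. A limma fit (3.58.1, R 4.3.3) of all 8 arrays in 4 groups, with 4 residual degrees of freedom, gave the adjusted p-values (Benjamini-Hochberg over 24306 genes); it was tested on simulated data. Day was not a term in this fit and was added as an alternative. The fit borrows the spread of the control from the experimental days. A fold for a group not above background on its arrays was taken against the background level (95th percentile of sensory receptor genes on that array, chosen after the values were seen) and is given as a lower bound. The members and the 46 gene lists were chosen with earlier results of these data known, and the clock and Ly6 lists were added after the values were seen. The genes described are the 15 with the largest distance in each direction, those of each list with the highest level or kept by the rule, those nearest the threshold and those with the widest gap by genotype. Promoter sequences are RefSeq's (GRCm38.p6), where 106 of the 127 genes had an entry. Alternatives changed the scaling, the spot, the floor, the distance, the fit and the arrays used. Python 3.11.15, pandas 2.3.3 and numpy 2.4.6 were used.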

Additional observations from a re-analysis of the deposited data

Results flagged for a closer look

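For 17 of the 127 genes the difference between genotypes in AT2s was another than in IAAPs by limma's interaction term (adjusted p under 0.05 over all genes), which 1062 of the 24306 genes passed. That fit takes no account of the day that arrays of both populations share. With day as a term 0 genes passed limma (lowest adjusted p = 0.081, 5354 with an unadjusted p under 0.05). None of the 24306 genes passed once the experimental arrays of any 1 day were left out, although 4502 to 5231 then had an unadjusted p under 0.05. C-IAAP is a single array with a raised background level of 8.67. The interaction is the AT2 difference minus the IAAP difference, on the log2 scale.

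Among genes higher in E-AT2, the interaction was -5.84 for Klf11 (1.37 in AT2s and 7.22 in IAAPs, adjusted p = 0.0102), -2.87 for Zfp933, -2.80 for C1ra and -2.74 for Tapbpl, where the IAAP difference was the larger and C-IAAP lay below its background level. It was 2.81 for Tspan17 and 3.71 for Als2cl (1.39 in AT2s and -2.32 in IAAPs, adjusted p = 0.0269), where the IAAP difference had the other sign.

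Among genes lower in E-AT2, the IAAP difference was positive in all 11 and C-IAAP lay below its background level in each. The interaction was -6.90 for Auts2 (-2.44 in AT2s and 4.46 in IAAPs, adjusted p = 0.0247), -6.57 for Mtg2 (-1.19 and 5.39, adjusted p = 0.0101), -6.27 for Ovca2, -5.24 for Tarsl2, -5.10 for Ctsf and -5.02 for Prxl2b. It was -4.91 for 3010003L21Rik, -4.75 for Lgals4, -4.55 for Gm41666, -3.66 for Kansl1 and -2.91 for Ago3. Whether the level of C-IAAP or the genotype sets these values was not tested.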

How the results depend on the processing

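No gene passed limma in E-AT2 against C-AT2 under the other fits, scalings and left-out arrays, apart from 1 lower gene, Olfr1436, when all spots of a gene were averaged (limma adjusted p = 0.0459). Every sample carries replicate number 1, so arrays could be matched only by day. With day as a term in the fit of 8 arrays, 0 genes passed limma in E-AT2 against C-AT2 (lowest adjusted p = 0.616, 1690 with an unadjusted p under 0.05). The interaction count of 1062 was 547 with averaged spots, 0 without the experimental arrays of any 1 day and 0 with day as a term, an alternative added after the values were seen.

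The counts of 59 higher and 68 lower genes follow the rule's own limits. A floor of 9 gave 24 and 30, a floor of 7 gave 129 and 143, a distance of 1.5 gave 21 and 21, and signal above background in place of the floor gave 99 and 157. The day 7 array alone gave 412 and 299, since 1 array has less to satisfy than 3. Leaving out 1 E-AT2 array gave 92 to 141 higher and 103 to 119 lower genes. The highest of the first came without day 4 and of the second without day 7, while without day 14 the counts were 95 and 106. Averaging spots gave 34 higher genes, 27 of them among the 59, and reversed Ints9 (-0.063). Taking the brightest spot over AT2 arrays reversed Cacna1c (-0.32). The 38 genes 1 or more on the same side in IAAPs (29.9% of 127) became 23 of 81 with averaged spots (28.4%) and 61 to 90 of 201 to 244 with 1 day left out (28.9% to 36.9%), and the 55 separated by genotype (43.3%) became 94 to 121 with 1 day left out (46.4% to 49.6%). Scaling on the array median, on genes used by every cell or by quantiles gave 52 to 54 higher and 63 to 71 lower genes. The S, G2 and M phase genes kept were 3 with signal above background on every E-AT2 array and 3 with a floor of 9.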
